A study of Homo sapiens with 2 samples.

Results

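The heat shock and chaperone genes considered here are 48 human genes, listed by name: the heat shock factors, the HSP90, HSP70 and HSP110 families, small heat shock proteins, J-proteins, BAG proteins, further cochaperones and the chaperonins. They were examined among the 20163 protein-coding genes of GENCODE release 44 on GRCh37, which has the coordinates of hg19. FLAG-SMARCA4 ChIP-seq, in which DNA bound by the tagged protein is precipitated and sequenced, gave 1 library from parental TOV21G cells and 1 from a clone resistant to EZH2 inhibition (EIR clone, numbered 3 in the labels). TOV21G is a line of ovarian clear cell carcinoma with mutated *ARID1A*. The labels give no drug selection for the parental cells, and the EIR clone was picked from TOV21G cells after GSK126, an EZH2 inhibitor, had been raised from 5 to 20 μM. Both carried the FLAG tag at the endogenous *SMARCA4* (BRG1) locus, and tagged cells were expanded from single colonies after puromycin selection, so that each library comes from a single line. The ChIP-seq asked which genes SMARCA4 occupies in parental and in EIR cells.

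Chaperones bind unfolded proteins and let them fold, hold them or pass them on for degradation. HSP70 proteins work in cycles of ATP hydrolysis that J-proteins start and that most BAG proteins and HSP110 reset by nucleotide exchange. HSP90 takes over late-folding clients such as kinases, and chaperonins enclose their clients in a chamber. Many of these genes are induced by HSF1, which on stress forms trimers and binds heat shock elements, inverted repeats of the unit GAA in promoters. SMARCA4 is an ATPase of the SWI/SNF complex, which moves nucleosomes.

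The deposited lists hold only regions in which the libraries differed, 10792 with more tags (aligned reads) in parental cells and 2104 with more in the EIR clone. A gene without a region may therefore be bound alike in both or not bound in either, and for such genes only the sequence and the distance to the nearest listed region are given. The totals recovered from the lists were 25600000 tags in the parental and 35000000 in the EIR library (rounded), a ratio of 1.36, so EIR tags are given below as whole tags and, scaled to the parental total, as scaled tags. With 1 library per condition there is no spread between replicates, and the regions were chosen for a difference between these same libraries. For this reason no *P* values are given, and the 95% confidence interval beside each fold (exact Clopper-Pearson, from the tag counts) covers counting error only.

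A region of either list lay within 1 kb of a transcription start site (TSS) of 15 of the 48 chaperone genes (31.25%), against 24.6% of all protein-coding genes. These were *HSF1*, *HSP90AA1*, *TRAP1*, *HSPH1*, *HSPA2*, *HSPA12A*, *CRYAB*, *TCP1*, *DNAJA2*, *DNAJB1*, *BAG1*, *BAG3*, *BAG5*, *BAG6* and *STIP1*. A parental-higher region was found at 14 of them (29.2% of 48, against 23.2% of protein-coding genes) and an EIR-higher region at *BAG1* and *BAG6*, which is 4.17% of members against 1.96%. *BAG1* had both, as did 0.541% of protein-coding genes. In the gene body beyond 1 kb of each TSS, 7 chaperone genes (14.6%) had a region, against 11.6% of protein-coding genes. These shares are a few percentage points from the background, on counts of 15 genes or fewer, and are not read as a property of the chaperone genes. The count of 15 rests on scaling by total tags. When the EIR tags were multiplied by a further 1.5, 6 members kept a region of either list and 4 a parental-higher one. The limit was a recomputed Poisson p-value of at most 1e-04, and every parental-higher promoter region kept a fold above 1. When the EIR tags were divided by 1.5, neither EIR-higher region passed that limit, although both kept their direction. Of the families, 4 of 6 BAG genes and 2 of 4 HSP90 genes had a promoter region, against 3 of 14 HSP70 and HSP110 genes, 2 of 10 J-protein genes, 1 of 3 small heat shock protein genes, 1 of 4 cytosolic chaperonin genes and 0 of 2 mitochondrial chaperonin genes. Both the factor *HSF1*, 1 of 2, and the cochaperone *STIP1*, 1 of 3, had one.

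The chaperone genes have more annotated TSSs than protein-coding genes in general, with a median of 7.5 against 5, and hence more places from which a region can be within 1 kb. Members with a promoter region had a median of 12 TSSs and those without had 6. The part of TSS number in the counts was not tested.

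**Figure D1:**
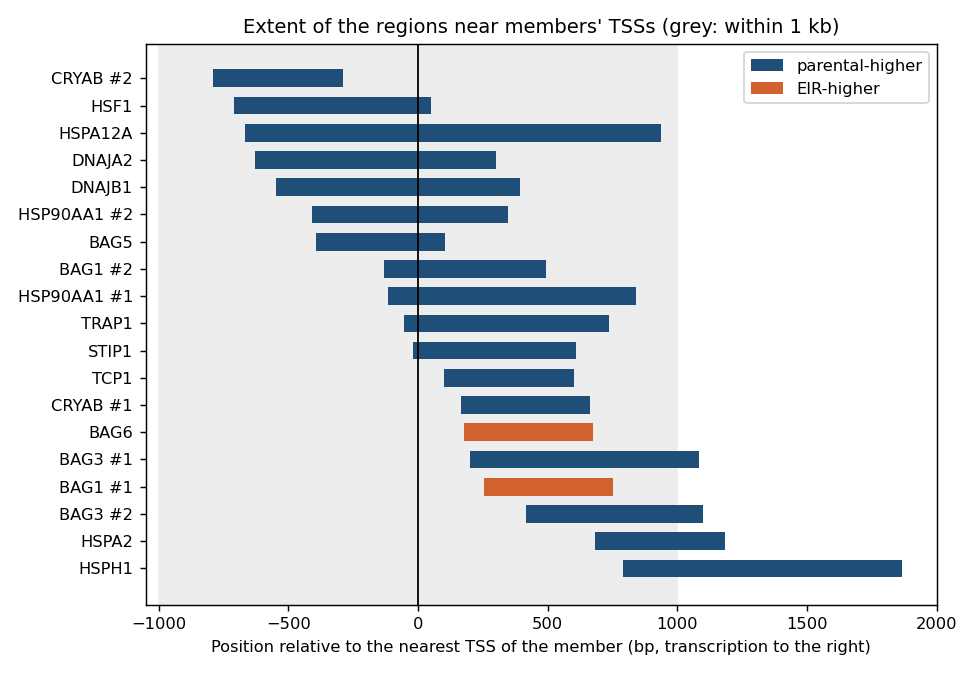
Extent of each of the 19 promoter regions on the horizontal axis, in bp from the nearest TSS of the chaperone gene with transcription to the right, in parental-higher regions (blue) and EIR-higher regions (orange); where a gene has more than 1 region they are numbered by coordinate, and grey marks 1 kb on either side. Of the 19 regions, 10 cover a TSS, and the *HSPA2* and *HSPH1* regions begin farthest from it, at 683 and 790 bp.

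Heat shock elements were then sought in the promoter sequences, as the binding motif of HSF1. The search took the 3-unit element GAANNTTCNNGAA or TTCNNGAANNTTC, which are the same pattern on opposite strands, in RefSeq promoters of 300 bases (GRCh38.p14, each promoter printed here matched once in GRCh37), from 250 bases before to 50 after the start. Of the 48 genes, 42 matched an entry, and *BAG4*, *ST13*, *CRYAB*, *STUB1*, *HSPA14* and *HSF1* did not. Only exact matches to these letters were counted, so a gene without one may still hold an element with a changed letter. The exact element was present in 7 of the 42 (16.7%), against 0.608% of 27305 gene symbols and 0.490% of all 35116 promoters in the table. Those 7 are shown here with 15 flanking bases where the promoter holds them, 5′ to 3′ on the strand of the gene, with the elements in capitals and GRCh37 coordinates.

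*HSP90AA1* at chr14:102553442-102553484, minus strand: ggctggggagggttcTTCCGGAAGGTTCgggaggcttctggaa

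*HSP90AB1* at chr6:44215500-44215542, plus strand: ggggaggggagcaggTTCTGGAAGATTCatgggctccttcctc

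*HSP90AB1* at chr6:44215553-44215595, plus strand: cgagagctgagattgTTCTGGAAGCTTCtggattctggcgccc

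*HSPA6* at chr1:161494241-161494283, plus strand: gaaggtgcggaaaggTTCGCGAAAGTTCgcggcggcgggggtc

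*HSPA8* at chr11:122933047-122933089, minus strand: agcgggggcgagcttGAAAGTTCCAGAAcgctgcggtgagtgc

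*HSPA8* at chr11:122932872-122932914, minus strand: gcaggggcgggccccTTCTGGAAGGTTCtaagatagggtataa

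*HSPD1* at chr2:198364777-198364814, minus strand: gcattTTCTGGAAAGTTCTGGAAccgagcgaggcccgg

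*DNAJB6* at chr7:157129552-157129594, plus strand: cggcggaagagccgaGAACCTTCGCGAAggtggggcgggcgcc

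*DNAJA1* at chr9:33025259-33025301, plus strand: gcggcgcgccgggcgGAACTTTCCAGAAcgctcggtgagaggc

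The capitals of *HSPD1* hold 2 elements that overlap. Of these 7 genes, only *HSP90AA1* had a region within 1 kb of a TSS, among 13 matched members with such a region, and the other 6 were among 29 matched members without. The distance from the element to the nearest region of either list was 8950 bp in *DNAJB6*, 15085 bp in *HSPD1*, 22837 bp from the nearer element of *HSP90AB1*, 33520 bp from that of *HSPA8*, 120243 bp in *DNAJA1* and 375199 bp in *HSPA6*. Most members lack a promoter region with or without an element, so nothing is read from these 7, and a missing region does not say whether SMARCA4 was bound there.

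The *HSP90AA1* element is the exception. It lay 88 to 76 bases upstream of the RefSeq start and inside the parental-higher region of that gene. Its whole promoter of 300 bases is shown, chr14:102553332-102553631 on the minus strand of GRCh37. This promoter is the only one in which an exact match to the 3-unit element and a region meet.

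*HSP90AA1* promoter: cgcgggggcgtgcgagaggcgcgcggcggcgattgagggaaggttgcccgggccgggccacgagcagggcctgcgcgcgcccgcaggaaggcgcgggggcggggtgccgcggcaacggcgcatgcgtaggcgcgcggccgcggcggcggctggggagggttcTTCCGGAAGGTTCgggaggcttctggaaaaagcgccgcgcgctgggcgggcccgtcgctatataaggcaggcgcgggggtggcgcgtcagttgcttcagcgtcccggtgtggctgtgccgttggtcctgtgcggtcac

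A shorter element of 2 units, GAANNTTC or TTCNNGAA, which the 3-unit element contains, was present in 20 of the 42 (47.6%), against 16.2% of gene symbols and 13.5% of all promoters. Of these 20, 4 had a promoter region and 16 did not. Besides *HSP90AA1*, these were *DNAJB1*, *STIP1* and *TCP1*, whose elements follow in capitals.

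*DNAJB1* at chr19:14629264-14629301, minus strand: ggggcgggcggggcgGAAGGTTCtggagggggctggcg

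*DNAJB1* at chr19:14629234-14629271, minus strand: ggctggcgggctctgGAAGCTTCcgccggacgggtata

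*DNAJB1* at chr19:14628726-14628763, minus strand: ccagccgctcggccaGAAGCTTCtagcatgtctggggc

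*STIP1* at chr11:63953641-63953678, plus strand: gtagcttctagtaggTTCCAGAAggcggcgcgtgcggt

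*TCP1* at chr6:160210843-160210880, minus strand: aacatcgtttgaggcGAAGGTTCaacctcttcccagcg

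The *STIP1* element and the *DNAJB1* element at the alternative start lay inside the parental-higher regions of these genes. The other *DNAJB1* elements, at 77 to 70 and 47 to 40 bases upstream of the main start, lay 352 and 322 bp outside its region, and that of *TCP1* 354 bp outside. In the central 500 bases of the 19 promoter regions themselves the 3-unit element was present in 0, against 0.337% of the 5051 promoter regions of protein-coding genes, and the 2-unit element in 5 (26.3%) against 12.5%. The *HSP90AA1* element, near the edge of its region, is outside this central window. A match of letters is a description and not a bound site.

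**Figure D2:**
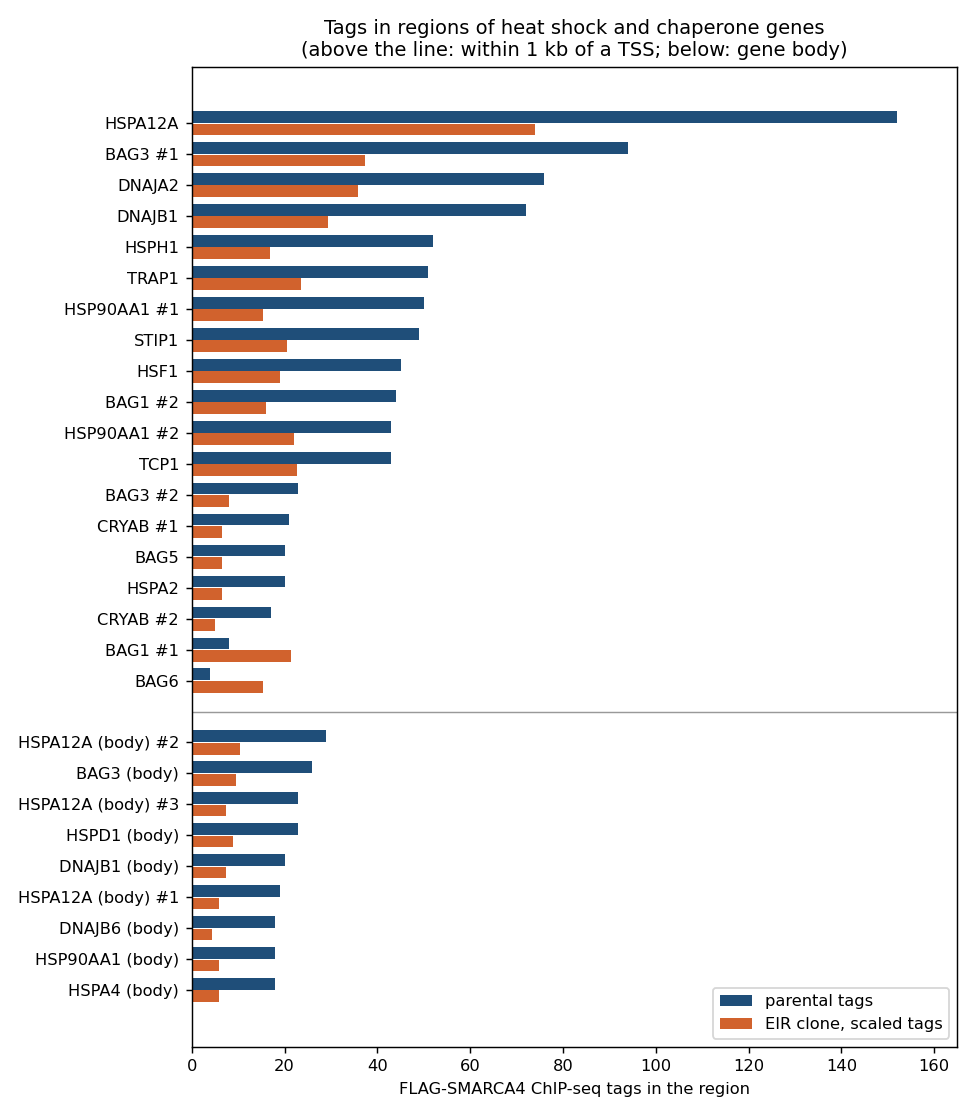
Tags of parental cells (blue) and scaled tags of the EIR clone (orange) in each of the 28 regions of chaperone genes, 1 library each, with the 19 promoter regions above the line and the 9 gene body regions below, and with several regions of a gene numbered by coordinate. The *HSPA12A* promoter region has the most tags, 152 against 74.0, and *BAG6* and the first *BAG1* region are the only ones with longer orange bars.

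Of the heat shock factors, transcription factors that induce many chaperone genes, *HSF1* had a parental-higher region at chr8:145514576-145515338, from -710 to 52 bp relative to its canonical TSS. It held 45 parental tags and 26 EIR tags (19.1 scaled), a fold of 2.36 (95% confidence interval 1.43 to 3.99). It covers the start of exon 1 and is also within 1 kb of a TSS of *BOP1*, a ribosome biogenesis gene. *HSF2* had no region nearby. The nearest, an EIR-higher one, was 2460564 bp away, the largest distance among the 48 genes.

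In the HSP90 family, the stress-inducible cytosolic gene *HSP90AA1* and the mitochondrial *TRAP1* had promoter regions, while the constitutive *HSP90AB1* and the endoplasmic reticulum member *HSP90B1* did not. At the canonical promoter of *HSP90AA1*, chr14:102552542-102553496 (-115 to 839 bp, from upstream sequence through exons 1 and 2 into intron 2), 50 parental tags stood against 21 EIR tags (15.4 scaled). The fold of 3.25 (1.92 to 5.69) was the second largest among the 17 parental-higher promoter regions, and this is the region that covers the heat shock element printed above. The other region, chr14:102605453-102606209, covers the start of a longer transcript beside *WDR20*, and its near edge is 52072 bp upstream of the canonical TSS. There 43 parental tags stood against 30 EIR tags (22.0 scaled), a fold of 1.96 (1.20 to 3.23), the second smallest. The intervals of these *HSP90AA1* regions overlap. A further region, at chr14:102591595-102592095 between these starts, had 18 parental tags and 8 EIR tags (5.9 scaled), a fold of 3.07 (1.27 to 8.16). *TRAP1* had 51 parental tags and 32 EIR tags (23.5 scaled) at chr16:3766788-3767578, which covers its TSS (-53 to 737 bp) and exon 1, a fold of 2.17 (1.37 to 3.50). For *HSP90AB1* and *HSP90B1* the nearest regions lay 22814 and 88796 bp from a TSS.

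Among 14 HSP70 and HSP110 genes, promoter regions were found at *HSPA12A*, *HSPA2* and *HSPH1*, all parental-higher. *HSPA12A*, an atypical and distant HSP70 relative, had the most tags of any promoter region of the chaperone genes. Its region, chr10:118501141-118502743 (-666 to 936 bp, over exon 1 and into intron 1), is also the widest at 1602 bp. It held 152 parental tags and 101 EIR tags (74.0 scaled), and the fold of 2.05 (1.59 to 2.67) is small but has the narrowest interval. Regions in the annotated gene body upstream of this start, which belong to longer transcripts, had larger folds on fewer tags. They held 19 parental tags and 8 EIR tags (fold 3.24, chr10:118516695-118517195), 29 and 14 (2.83, chr10:118525695-118526323) and 23 and 10 (3.14, chr10:118526781-118527281).

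*HSPH1*, the HSP110 that exchanges nucleotide on HSP70, had a region wholly inside intron 1, chr13:31734175-31735251, which starts 790 bp downstream of the TSS. The parental library had 52 tags there and the EIR library 23 (16.9 scaled), a fold of 3.08 (1.85 to 5.28). *HSPA2*, an HSP70 with high expression in testis, had 20 and 9 tags (6.6 scaled) at chr14:65003306-65003806, a fold of 3.03 (1.32 to 7.56). This region is 683 bp from an alternative start and 3653 bp upstream of the canonical one. *HSPH1* and *HSPA2* were the members just inside the limit of 1 kb. Just outside it were *HSPD1*, 1067 bp from the nearest TSS, and the HSP110 gene *HSPA4*, at 1413 bp in its intron 1 (chr5:132389118-132389618, 18 against 8 tags, or 5.9 scaled, fold 3.07, 1.27 to 8.16).

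The other 10 genes of this family had no region within 1 kb or in the gene body. *HSPA14*, a ribosome-associated member, had the nearest, 1729 bp from a TSS with 16 against 7 tags. The stress-inducible *HSPA1A* and *HSPA1B* and the related *HSPA1L* share 1 nearest region, chr6:31790633-31791133, between *HSPA1A* and *HSPA1B*, at 7313, 4382 and 7573 bp, with 19 parental tags and 9 EIR tags (6.6 scaled, fold 2.88, 1.24 to 7.23). Values at *HSPA1A* and *HSPA1B* are uncertain because they are near-copies. Of the 75-base words, the read length, within 1 kb of either start, 37.3% occur at both, and how reads with several matches were treated is not given in the sources used here. The constitutive *HSPA8* was 32656 bp, the endoplasmic reticulum *HSPA5* 41131 bp and the mitochondrial *HSPA9* 66032 bp from the nearest region. *HSPA4L*, *HSPA6* and *HSPA13* were 247934, 375137 and 480461 bp away, the last with an EIR-higher region.

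Of the small heat shock proteins, which hold unfolded proteins without using ATP, *CRYAB* (alpha-B-crystallin) had 2 parental-higher regions and *HSPB1* and *HSPB8* had none, with their nearest regions at 19567 and 406944 bp. The first *CRYAB* region, chr11:111782986-111783486, lies 492 bp upstream of the canonical TSS, between *CRYAB* and *HSPB2*, the small heat shock protein gene that is transcribed away from it, and covers a TSS of *HSPB2*. It held 21 parental tags and 9 EIR tags (6.6 scaled), a fold of 3.18 (1.40 to 7.89). The second, chr11:111784910-111785410, lies 289 bp upstream of an alternative start. Its 17 parental tags against 7 EIR tags (5.1 scaled) gave the largest fold of the 17 regions, 3.31, on the fewest tags and with the widest interval (1.31 to 9.45).

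The mitochondrial chaperonin genes *HSPD1* (HSP60) and *HSPE1* (HSP10), which are transcribed from opposite strands of 1 locus, had no promoter region. Their nearest region was the same, chr2:198379894-198380394, in the annotated body of *HSPD1* but 15330 bp upstream of its canonical TSS and near *MOB4*. It held 23 parental tags and 12 EIR tags (8.8 scaled), a fold of 2.61 (1.25 to 5.77), and is 14288 bp from a TSS of *HSPE1*. Of the cytosolic chaperonin TRiC, which folds actin and tubulin, 4 subunit genes are among the members. Only *TCP1* of these 4 had a promoter region, shared with the neighbouring *MRPL18*. At chr6:160210004-160210504, from 100 bp inside the nearest TSS over part of exon 1 and intron 1, 43 parental tags stood against 31 EIR tags (22.7 scaled). This was the smallest fold of the 17 regions, 1.89 (1.16 to 3.11). The subunit genes *CCT2*, *CCT5* and *CCT3* were 14895, 45228 and 67883 bp from a region. Outside the member list, the TRiC genes *CCT6A* (fold 2.65) and *CCT6B* (folds 2.88 and 2.14) had parental-higher promoter regions. *CCT4*, *CCT7* and *CCT8* had none.

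Among the J-proteins, cochaperones that stimulate the ATPase of HSP70, *DNAJA2* and *DNAJB1* had promoter regions of many tags and modest folds. *DNAJA2* had 76 parental tags and 49 EIR tags (35.9 scaled) at chr16:47006551-47007481, which runs from exon 1 into intron 1 and covers an alternative TSS, a fold of 2.12 (1.46 to 3.09). *DNAJB1* (HSP40) had 72 and 40 tags (29.3 scaled) at chr19:14627987-14628927, a fold of 2.46 (1.65 to 3.71). This region begins 282 bp downstream of the canonical TSS, in intron 1, covers an alternative one, and is also within 1 kb of a TSS of *TECR*. Upstream of both, in the annotated body, a region at chr19:14632440-14632940 held 20 and 10 tags (7.3 scaled, fold 2.73, 1.22 to 6.53).

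*DNAJB6*, a suppressor of aggregation, had only a body region, in intron 1 at chr7:157138529-157139029, 6014 bp from the nearest TSS. With 18 parental tags against 6 EIR tags (4.4 scaled) its fold of 4.09 (1.56 to 12.6) was the largest of the 28 regions, and its interval holds the fold of every other parental-higher region of the chaperone genes. *DNAJB5* had an EIR-higher region 4498 bp from a TSS, chr9:34984640-34985140, with 3 parental tags against 23 EIR tags (16.9 scaled). The remaining J-protein genes *DNAJC7*, *DNAJA3*, *DNAJB2*, *DNAJA1*, *DNAJB4* and *DNAJC3* were between 15925 and 398475 bp from the nearest region, in that order, each parental-higher.

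Most BAG proteins bind the HSP70 ATPase domain. Of the 6 BAG genes, 4 had a promoter region, against 24.6% of all protein-coding genes, and 2 had an EIR-higher one, against 1.96%. At a HOMER p-value of at most 1e-06, 0 members kept an EIR-higher region. These counts are of a few genes and are not read as a property of the family. *BAG3*, which acts in selective autophagy and is inducible by stress, had the second most tags of the chaperone genes. Its main region, chr10:121411094-121411976, starts 202 bp downstream of the TSS in exon 1 and runs into intron 1. It held 94 parental tags and 51 EIR tags (37.4 scaled), a fold of 2.51 (1.77 to 3.61), the median of the 17 regions. In the same intron, a region 415 bp past an alternative TSS had 23 and 11 tags (8.1 scaled, chr10:121416537-121417221, fold 2.85, 1.34 to 6.48) and one deeper in the intron had 26 and 13 (9.5 scaled, chr10:121425735-121426445, fold 2.73, 1.35 to 5.78). So the first intron of *BAG3* had 3 parental-higher regions with overlapping intervals. *BAG5* had 20 and 9 tags (6.6 scaled) at chr14:104028888-104029388, over its TSS and within 1 kb of starts of *COA8* and *KLC1*, a fold of 3.03 (1.32 to 7.56).

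*BAG1*, a nucleotide exchange factor that was found as a BCL2 partner, had regions of opposite direction next to each other. The parental-higher region, chr9:33264214-33264838, covers the canonical TSS (-132 to 492 bp) and exon 1, with 44 parental tags and 22 EIR tags (16.1 scaled), a fold of 2.73 (1.60 to 4.78). The EIR-higher region, chr9:33263804-33264304, lies farther into the gene, from 402 to 902 bp past the canonical TSS in the end of exon 1 and intron 1, with 8 parental tags and 29 EIR tags (21.3 scaled). Its fold of EIR over parental was 2.66 (1.19 to 6.73). Both are also within 1 kb of a TSS of *CHMP5*, the neighbour on the other strand.

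The 2 *BAG1* regions share 91 bases, chr9:33264214-33264304, so some tags may be counted in both. Added up, they held 52 parental tags and 51 EIR tags (37.4 scaled). This sum joins regions that were listed for opposite directions and may count shared tags again, so it is not a value for the whole stretch. The shared bases are printed in capitals, with 30 bases on either side in lower case, on the plus strand from chr9:33264184-33264334, because regions of opposite direction meet there.

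*BAG1* overlap: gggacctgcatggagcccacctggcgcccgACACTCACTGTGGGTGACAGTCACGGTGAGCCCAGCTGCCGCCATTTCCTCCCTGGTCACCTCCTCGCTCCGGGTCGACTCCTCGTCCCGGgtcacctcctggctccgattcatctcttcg

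*BAG6*, which guards newly made membrane proteins, was the only member whose nearest promoter region was EIR-higher. The region, chr6:31619021-31619521 over exon 2 and intron 2, had 4 parental tags against 21 EIR tags (15.4 scaled). The fold of EIR over parental was 3.85 (1.30 to 15.4). It is 176 bp from an alternative TSS, 917 bp from the canonical one, and within 1 kb of a TSS of *APOM*. *BAG4* and *BAG2* had no region nearer than 23321 and 217047 bp.

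Of the other cochaperones, *STIP1* (HOP), which links HSP70 with HSP90, had 49 parental tags and 28 EIR tags (20.5 scaled) at chr11:63953625-63954251. The region covers the TSS (-18 to 608 bp), exon 1 and the 2-unit element printed above, with a fold of 2.39 (1.47 to 3.94). The ubiquitin ligase *STUB1* (CHIP) had a region just beyond the limit, at 1429 bp, with 43 and 26 tags (19.1 scaled, fold 2.26, 1.36 to 3.82). *ST13* (HIP) was 135694 bp from the nearest region, an EIR-higher one.

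**Figure D3:**
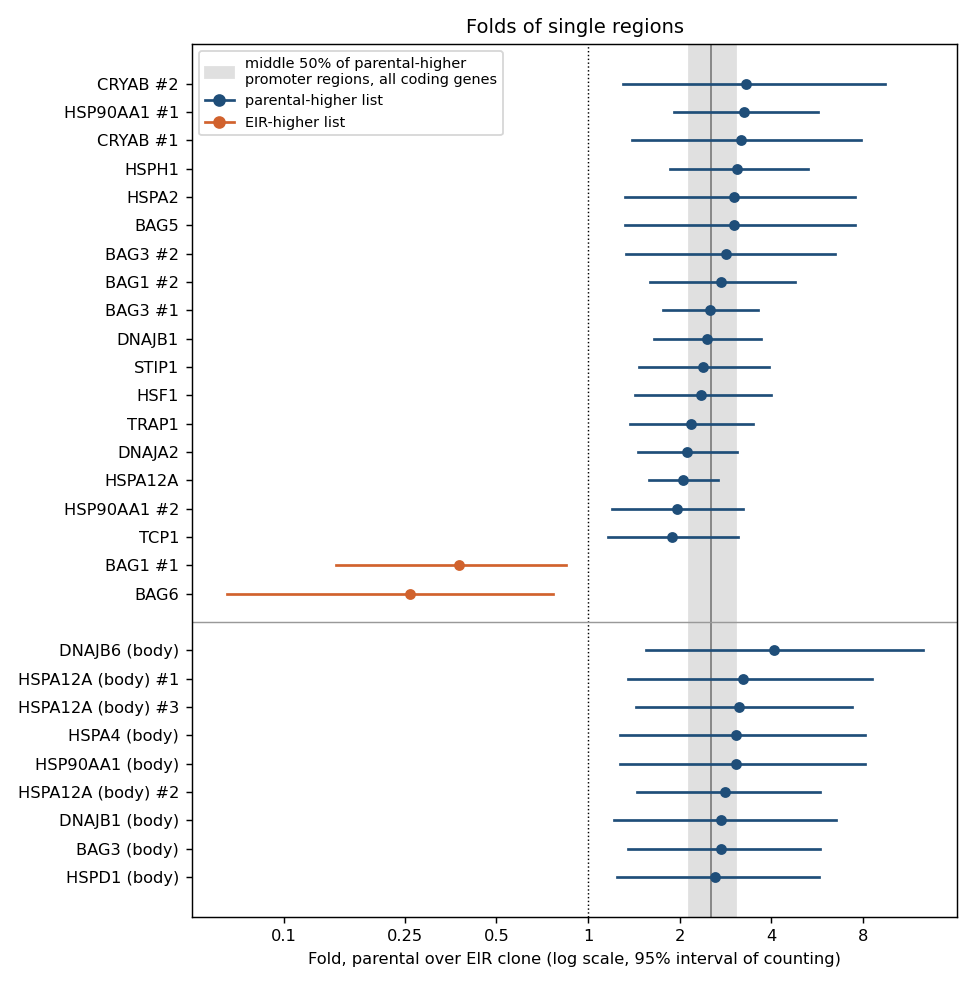
Fold of parental tags over scaled EIR tags (log scale) for each region, with the 95% counting interval as a line, promoter regions above and gene body regions below, and the middle 50% of parental-higher promoter regions of all protein-coding genes in grey. Of the 17 parental-higher promoter regions, 9 lie inside the grey band, 4 above and 4 below, and every interval reaches into it.

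The promoter regions of chaperone genes were set beside those of all protein-coding genes, and the medians lay close together. The 17 parental-higher promoter regions had folds from 1.89 to 3.31 with a median of 2.51, and the 4668 of all protein-coding genes a median of 2.54 with quartiles of 2.15 and 3.07. Parental tags had a median of 45 against 48, width 756 against 752 bp, and GC content 67.4% against 70.9%. Taking the nearest promoter region of each of the 15 genes, the median fold was 2.39 (interval of the median from order statistics 2.05 to 3.03), against 2.46 over 4958 genes. The EIR-higher folds of *BAG1* and *BAG6*, 2.66 and 3.85, lie on either side of the median of 3.37 over 383 such promoter regions. The fold intervals of the members mostly overlap one another, so the order of members by fold is not resolved at this depth.

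All 9 gene body regions were parental-higher. Of the 4340 body regions of protein-coding genes, 18.2% were EIR-higher, and of the 11 in the comparison list below, 3 were. The 9 regions belong to only 7 genes, 3 of them to *HSPA12A*, so their direction is not read as a property of the chaperone genes. The body regions of *HSPA12A* and *BAG3* all lie on chromosome 10, and the part of the chromosome in these directions was not tested. The folds of the 9 regions had a median of 3.07, equal to the 3.07 of parental-higher body regions in general, and their parental tags a median of 20 against 22. In both sets these tag medians were below those of the promoter regions.

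**Figure D4:**
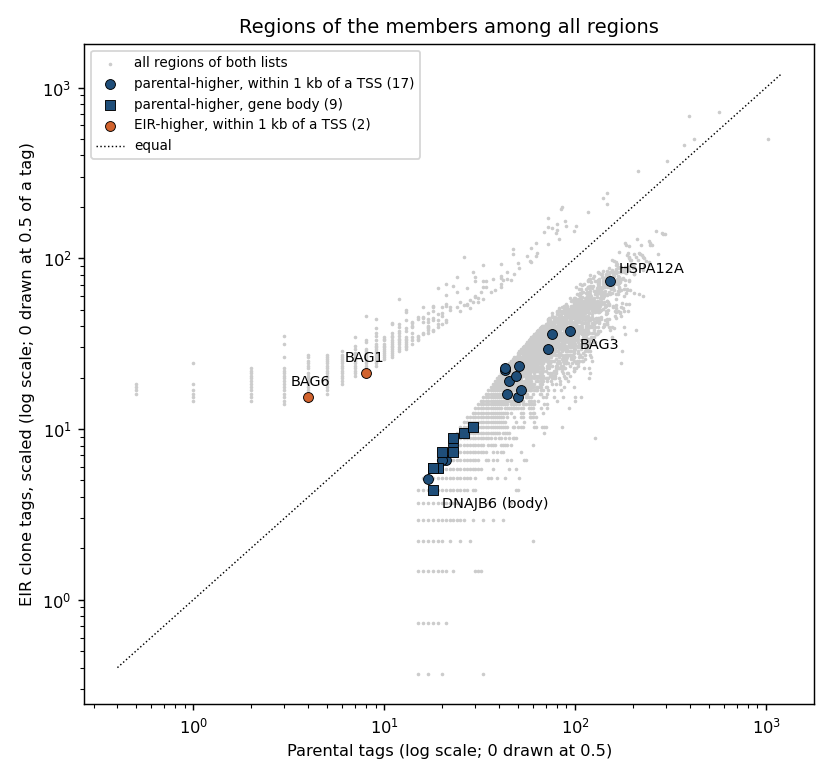
Parental tags (horizontal) and scaled EIR tags (vertical) of all 12896 regions (grey) and of the 28 regions of chaperone genes (promoter regions as circles, gene body regions as squares; blue for parental-higher and orange for EIR-higher), both axes logarithmic, with 0 drawn at 0.5 of a tag. Chaperone regions lie inside the cloud of their list, with *HSPA12A* highest at 152 parental tags, and none of the 28 touches the dotted line of equal tags, as regions were listed for a difference.

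Relative to the canonical TSS, 7 of the 19 promoter regions cover it, 8 lie wholly downstream and 4 wholly upstream. Of 19 pairs of a chaperone gene and a promoter region, 9 (47.4%) were also within 1 kb of a TSS of another protein-coding gene, against 19.7% of the 5619 such pairs of all protein-coding genes, a difference that was not tested. For these, such as *TCP1* with *MRPL18* and *HSF1* with *BOP1*, the tags cannot be assigned to one gene. No region was shared by 2 chaperone genes of the list.

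**Figure D5:**
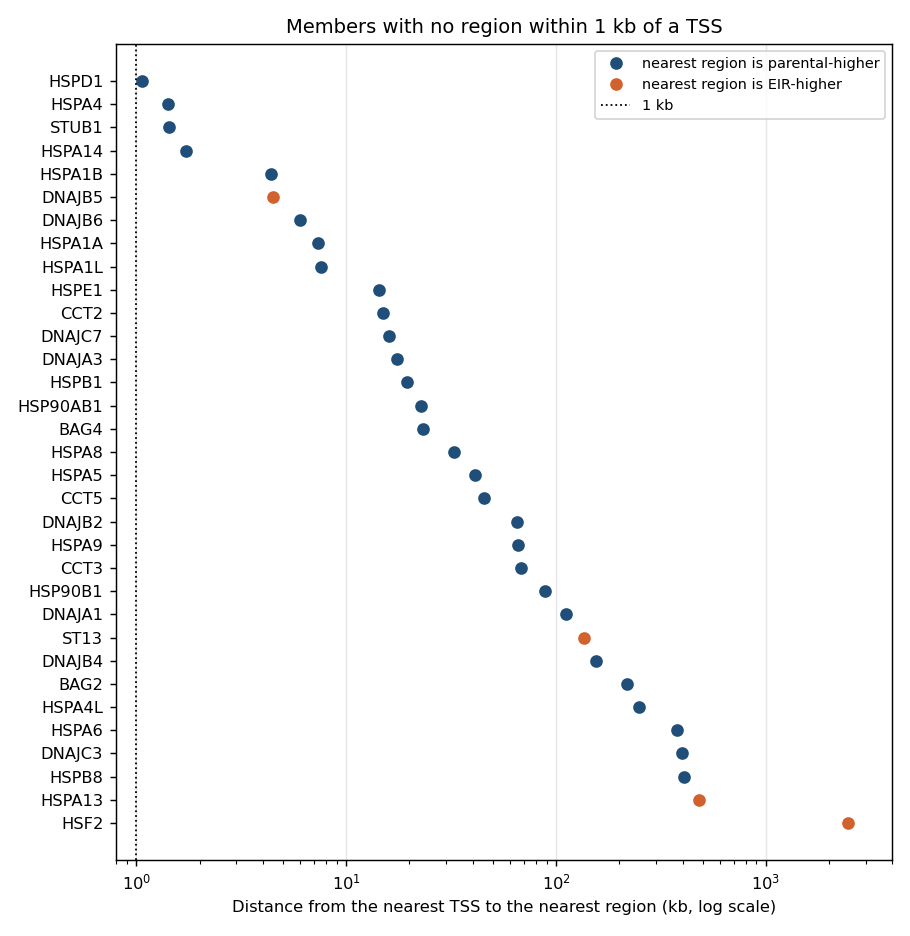
Distance from the nearest TSS to the nearest region of either list (kb, log scale) for the 33 chaperone genes without a region within 1 kb, coloured by whether that region was parental-higher (blue) or EIR-higher (orange). The distances run from 1067 bp in *HSPD1* to 2460564 bp in *HSF2*, and 4 of the 33 are orange.

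Of the 48 genes, 33 had no promoter region, 3 of which (*HSPA4*, *DNAJB6* and *HSPD1*) had a body region and 30 had neither. The nearest region was parental-higher for 29 of the 33 genes and EIR-higher for *DNAJB5*, *ST13*, *HSPA13* and *HSF2*. Of all 12896 listed regions, 10792 were parental-higher, so these directions are not read as a property of the chaperone genes. The median distance was 32.7 kb. There were 6 genes within 5 kb and 14 beyond 50 kb. These distances were not set beside those of other protein-coding genes.

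A further list of 78 genes of the same systems was examined as a comparison. It holds, among others, J-proteins, small heat shock proteins, prefoldin and TRiC subunits, HSP90 cochaperones and the unfolded protein response of the endoplasmic reticulum. *HSF4*, *HSF5* and HSP70 and HSP90 relatives such as *HSPA7* and *HSP90AA2P* are also on it. The 77 genes found in the annotation were not limited to protein-coding genes, unlike the background. Of these 77, 21 (27.3%) had a promoter region, against 24.6% of all protein-coding genes. All 22 of these promoter regions were parental-higher, as were 4668 of the 5051 promoter regions of protein-coding genes. The list is not separate from the members, since the region of *HSPB2* is the first one of *CRYAB*. Their folds ran from 1.94 to 5.16 with a median of 2.75. The largest were at *DNAJC5*, a J-protein of synaptic vesicles (53 parental tags against 14 EIR tags, 10.3 scaled, fold 5.16, 2.82 to 10.1), *DNAJB12*, a J-protein of the endoplasmic reticulum membrane (19 against 7, 5.1 scaled, fold 3.70, 1.49 to 10.4), and *UNC45A*, a myosin chaperone (26 against 11, 8.1 scaled, fold 3.22, 1.54 to 7.23). Body regions were found in 7 of the 77 (9.09%), against 11.6% of protein-coding genes. Of these 11 body regions, 3 were EIR-higher, in *DNAJB12*, *HSBP1* and *FKBP5*.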

How the data were processed

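The members were given by name, and the members and lists were chosen with earlier results of these data known. Per the labels and the methods of the study, the authors aligned 75-base single-end reads to hg19 (Bowtie 0.12.9 in the submitters' processing notes) and ran HOMER's histone-style region calling in both directions, parental against EIR clone and the reverse, at an FDR under 5%. The deposited lists give the tag count of the parental library and the signal of the EIR library, which the authors scaled to the parental total. The deposited p-value is HOMER's and served only as a filter in an alternative. The fold columns of the authors were not used.

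EIR tags were recovered from steps of 0.733 scaled tags, and 98.8% of 163 distinct values were whole multiples within 0.05. Folds are ratios of parental tags to scaled EIR tags. A distance is that between the closest edge and any TSS of GENCODE release 44. Every member is named, and the members of most tags, extreme fold, EIR-higher or paired regions are given in full. Intervals were tested on simulated counts, and joins were compared with an exhaustive search over the same regions and TSSs. The alternatives were other windows, TSS sets, thresholds, scalings, pseudocounts and motifs. Tools were pysam 0.24.0, scipy 1.17.1, pandas 2.3.3, numpy 2.4.6, matplotlib 3.10.9 and Python 3.11.15.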

Additional observations from a re-analysis of the deposited data

How the results depend on the processing

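The scaling of the libraries moved the counts of chaperone genes most. A region was kept where its recomputed Poisson p-value was at most 1e-04 in the direction of its list. After multiplying the EIR tags by a further 1.5, 6 members kept a region of either list and 4 a parental-higher one, and the median fold fell to 1.59. *BAG5*, *CRYAB*, *DNAJA2*, *HSF1*, *HSPA12A*, *HSPA2*, *STIP1*, *TCP1* and *TRAP1* no longer passed, and *BAG1* kept only its EIR-higher region. The parental-higher folds that no longer passed stayed above 1, such as 1.26 in *TCP1* and 1.57 in *HSF1*. After dividing the EIR tags by 1.5 the median fold was 3.58 and 0 members kept an EIR-higher region. The parental over EIR folds of 0.564 in *BAG1* and 0.390 in *BAG6* were still EIR-higher. The count was also 0 with a HOMER p-value of at most 1e-06, under which 10 members kept a region of either list. A window of 5 kb left 4 members with a body region and gave 21 with a region near a TSS. Elements of 2 units were in 20 promoters. Tags summed over all regions within 5 kb turned the EIR-higher *BAG1* region to a fold of parental over EIR of 1.39, by adding its parental-higher neighbour. The count of 15 was 13 with a window of 500 bp, 15 with protein-coding transcripts, 11 from the 5′ end of each gene, 14 from the centre of a region and 14 with a fold of at least 2. Of the 28 single folds, all moved by less than their interval with a pseudocount of 1 tag, 24 with the higher and 25 with the lower scaling. Regions that were not called could not be added by any alternative, and the alternatives say nothing of replicates, of which there were none. No paired analysis was possible because each condition has 1 library.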
